A study of Mus musculus with 4 samples.

Results

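Collagen-rich fibroblast-like cells were a rare population among sorted bone marrow (BM) macrophages of mice, 131 of 36528 cells. A barcode counted as a cell when it held 1000 UMIs or more from 200 or more genes, with no more than 10% of them mitochondrial, and did not pass in both libraries of an experiment. A UMI (unique molecular identifier) tags a captured mRNA before PCR, and its copies count once. A cell was taken as collagen-rich when the UMIs of Col1a1, Col1a2 and Col3a1 summed to at least 10 and at least 2 of the 3 genes were detected. Col1a1 (GRCm38 chr11:94936224-94953042) and Col1a2 (chr6:4504814-4541544) encode the chains of type I collagen, and Col3a1 (chr1:45311538-45349706) that of type III collagen.

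BM was flushed from the femur and tibia of male C57BL/6J mice, 4 weeks old in this experiment, and cultured with M-CSF, the growth factor of macrophages. RM1 cells, a mouse prostate cancer line made with Ras and Myc, were killed with UV light, labeled with the dye CFSE and fed to the macrophages for 16–18 h. Cells positive for F4/80, a surface protein of mouse macrophages, and for CFSE were sorted as efferocytic, and cells positive for F4/80 alone as non-efferocytic. Each of 2 experiments gave 1 library per group, 10X Genomics 3′ droplet libraries, so that 2 efferocytic were compared with 2 non-efferocytic libraries. The labels do not say from how many mice a library came, and p-values measure the spread between these libraries. No transgene is named for either group, and the F4/80 gate was the only selection named against stromal cells.

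Fibroblasts of the marrow stroma build and remodel the collagen scaffold. Procollagen chains are hydroxylated and folded in the endoplasmic reticulum, trimmed outside the cell and crosslinked by lysyl oxidases. The same cells send signals to blood cells, among them Cxcl12, which holds progenitors in the marrow, and Csf1, which is M-CSF. When activated they gain the contractile apparatus of myofibroblasts, with smooth muscle actin (Acta2) and transgelin (Tagln), a state that TGF-beta and mechanical tension are known to drive.

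The 4 libraries held 101049514 and 137766472 UMIs in non-efferocytic cells of Experiments 1 and 2, and 124692012 and 154354662 in efferocytic cells. Median UMIs of the collagen-rich cells were 40536 and 21739 in the non-efferocytic and 40376.5 and 38507 in the efferocytic libraries. The remaining cells had medians of 11123, 9637, 17156 and 17543 in the same order, so that the collagen-rich cells held more UMIs in every library, by 2.2 to 3.64 times. Of the 131 cells, 15 had under 5000 UMIs and 11 of these were in the non-efferocytic library of Experiment 2. No barcode of a collagen-rich cell was a collagen-rich cell of another library, and 68 barcodes of cells were shared between the experiments.

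Collagen-rich cells were 34 of 8265 non-efferocytic cells in Experiment 1 (0.411%, exact 95% interval 0.285 to 0.574%) and 58 of 13293 in Experiment 2 (0.436%, 0.331 to 0.564%). They were 16 of 6680 efferocytic cells in Experiment 1 (0.240%, 0.137 to 0.389%) and 23 of 8290 in Experiment 2 (0.277%, 0.176 to 0.416%). Both efferocytic libraries had the lower share, with a mean of 0.258% ± 0.027 (SD, n = 2) against 0.424% ± 0.018 (SD, n = 2). The difference of -0.165 percentage points had a two-sided exact permutation p of 0.333, the smallest that 2 against 2 libraries allow. It was -0.0983 with at least 20 collagen UMIs (-0.138 and -0.0581 in Experiments 1 and 2) and -0.268 with at least 10 collagen UMIs for each 10000 UMIs of a cell. Cells of 10 to 19 collagen UMIs numbered 4 and 15 in the non-efferocytic and 1 and 1 in the efferocytic libraries. The intervals cover counting error only, and the sort on F4/80 and CFSE sets which cells could enter a library. Among cells with little macrophage RNA, described next, the order of the groups was the opposite.

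Macrophage transcripts were present in many collagen-rich cells. Over 18 macrophage markers (among them Adgre1, which encodes F4/80, Csf1r and Lyz2), the collagen-rich cells had a median of 1.21% and 1.25% of their UMIs in the non-efferocytic libraries and 0.427% and 0.0385% in the efferocytic ones. The remaining cells had medians of 5.19%, 4.75%, 4.42% and 3.54% in that order. Cells under 0.5% numbered 9 of 34 and 22 of 58 in the non-efferocytic libraries and 9 of 16 and 17 of 23 in the efferocytic ones, 57 in all, while 24 collagen-rich cells were at or above the 5th percentile of the remaining cells. Of these 24, 15 had under 20 collagen UMIs. Macrophage content thus moved with efferocytic status, and its part in the share was not tested.

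**Figure D1:**
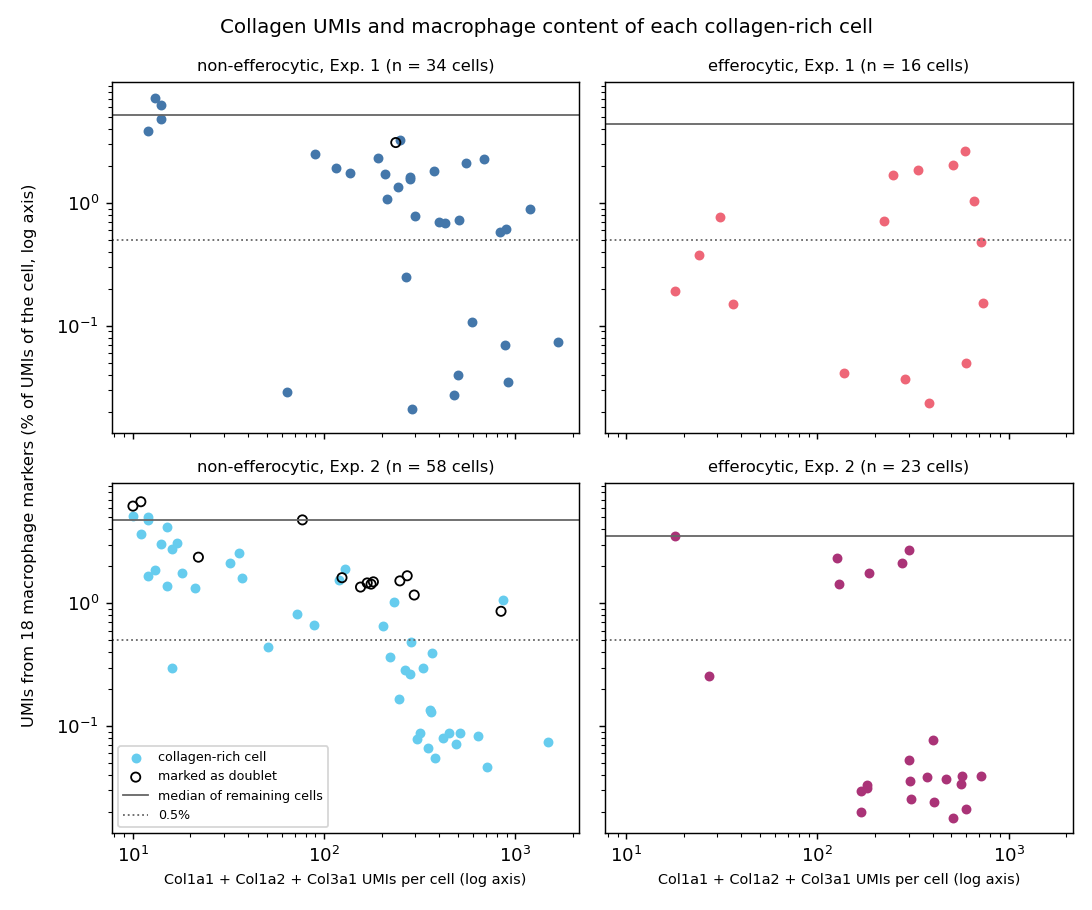
Each point is 1 collagen-rich cell, by its summed Col1a1, Col1a2 and Col3a1 UMIs (x, log axis) and the percent of its UMIs from 18 macrophage markers (y, log axis), in a panel per library; open points are cells marked as doublets, the solid line is the median of the remaining cells and the dotted line 0.5%. Cells of high macrophage content and few collagen UMIs sit mostly in the non-efferocytic panels, and 17 of 23 efferocytic cells of Experiment 2 lie under 0.5%.

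Of cells scored as doublets against simulated pairs, 14 were collagen-rich, 13 of 58 in the non-efferocytic library of Experiment 2 and 1 of 34 in that of Experiment 1. Over all cells, 1414 of 13293 and 546 of 8265 were marked in these libraries, and 357 of 6680 and 550 of 8290 in efferocytic Experiments 1 and 2. The number marked was set by the number of cells, at 0.8% per 1000. Pairs were drawn at random from all cells of a library, of which few were collagen-rich. Cells under 0.5% macrophage UMIs made up 0.109% and 0.166% of the non-efferocytic and 0.135% and 0.205% of the efferocytic libraries, a difference of 0.033 percentage points with an exact permutation p of 0.667. After doublets were left out the shares were 0.428% and 0.379% against 0.253% and 0.297%. The collagen-rich cells of the first criterion are used from here on, with values of the 57 cells, a class chosen after seeing the data, beside them.

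The number of collagen UMIs ranged from 10 to 1671 with a median of 249. All 3 genes were detected in 125 cells, and the other 6 had no UMI of Col3a1. At least 100 collagen UMIs were found in 95 cells, whereas 21 had 10 to 19. Just outside the threshold, with 7 to 9 collagen UMIs, lay 1 cell in the non-efferocytic library of Experiment 1 and 8 in that of Experiment 2, with macrophage contents of 0.816% to 5.01%. Just inside, with 10 to 13 UMIs, lay 2 and 8 cells with 1.66% to 7.11%, and no efferocytic library had a cell in either range.

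The genes that chose the cells reached 4811 and 4129 CPM (UMIs of the gene for each 1000000 UMIs, both summed over the cells of a library) for Col1a1 in the non-efferocytic and 3928 and 3069 CPM in the efferocytic libraries. The remaining cells had 1.36, 7.35, 0.516 and 0.495 CPM in the same order. Outside the collagen-rich cells, Col1a1 was thus highest in the non-efferocytic library of Experiment 2. As the cells were chosen by these genes, all differences between collagen-rich and remaining cells are a description without a test. Of 31053 genes, 1165 (3.75%) were at least 2-fold higher in collagen-rich cells in all 4 libraries and 675 (2.17%) at least 2-fold lower, counting genes of at least 10 CPM in the higher class.

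Other fibrillar and network collagens accompanied the rule genes. Of 8 other fibrillar collagens 4 were at least 2-fold higher in all 4 libraries, with Col5a2, a chain that nucleates collagen fibrils, at 431, 508, 390 and 331 CPM in non-efferocytic Experiments 1 and 2 and efferocytic Experiments 1 and 2, the order used for all values below. The remaining cells had 0.221, 0.982, 0.0242 and 0.0586 CPM of Col5a2. Of 11 other collagens 8 were higher, led by the type VI chains Col6a1 (697, 859, 983 and 985 CPM) and Col6a2 (642, 691, 758 and 865 CPM). Type VI collagen forms the beaded microfibrils around cells. The cartilage collagen Col2a1 was low, at 37.3, 45.3, 20.1 and 6.75 CPM.

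The machinery that folds, trims and crosslinks collagen was present with its substrate. Of 16 folding and modifying genes 10 were at least 2-fold higher and none was lower, with the collagen chaperone Serpinh1 (HSP47) at 1026, 1133, 1134 and 1261 CPM against 0.602, 3.78, 0.250 and 0.306 CPM in the remaining cells. Of 12 trimming and crosslinking genes 8 were higher, among them the procollagen protease Bmp1 and its enhancer Pcolce (435, 537, 393 and 622 CPM). Lysyl oxidase (Lox) was at 590, 499, 207 and 369 CPM. Proteoglycans and glycoproteins of the matrix were higher for 16 of 24 genes, with Sparc, a collagen-binding glycoprotein, at 3227, 3588, 3176 and 2859 CPM and the small proteoglycan Bgn at 987, 1126, 918 and 1194 CPM.

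By the ratio of collagen-rich over remaining cells in their lowest library, the leading genes were Igfbp7, Ebf1, Sfrp2, Tnc, Col5a2, Col6a2, Gpm6b, Col6a3, Col5a1, Fat1, Adamts2, Hspg2, Prss23, Ltbp2 and Sparc. Ebf1, a transcription factor of B cells, fat precursors and marrow stroma, was at 139, 179, 214 and 191 CPM against 0.1003, 0.286, 0.0886 and 0.0586 CPM. Sfrp2, a Wnt-binding secreted protein, had no UMI in the remaining cells of either library of Experiment 1. The lowest log2 ratio among these 15 genes, with 1 count added to each sum, was 8.87 for Sparc in the non-efferocytic library of Experiment 2.

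**Figure D2:**
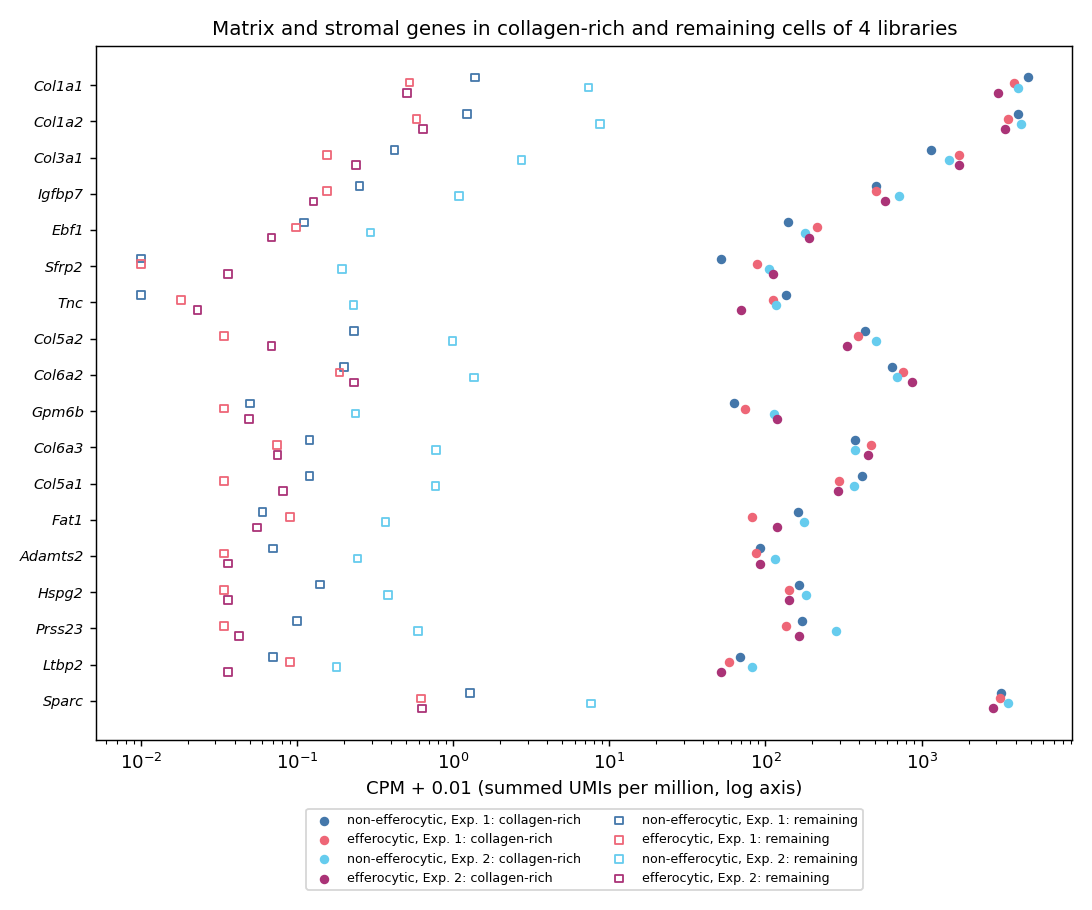
Levels of the 3 rule genes and the 15 genes of highest ratio in CPM + 0.01 (x, log axis) by gene (y), with 1 filled point per library for collagen-rich and 1 open square for remaining cells. Sparc lies between 2859 and 3588 CPM in the collagen-rich cells and between 0.612 and 7.65 CPM in the remaining cells, and the non-efferocytic library of Experiment 2 has the highest squares.

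Markers listed for fibroblasts were met in part. Of 14, 7 were at least 2-fold higher in all libraries, with Fstl1 at 644, 641, 441 and 508 CPM, the mesenchymal factor Prrx1 at 169, 246, 258 and 247 CPM and the cadherin Cdh11 at 153, 161, 140 and 144 CPM. The growth factor receptor Pdgfra was at 43.7, 60.1, 63.5 and 107 CPM, and Dcn, a proteoglycan abundant in most fibroblasts, at 70.9, 75.7, 41.8 and 116 CPM. Thy1 was detected in 5.88%, 6.90%, 12.5% and 8.70% of the collagen-rich cells before thinning. In cells thinned to 5000 UMIs, Pdgfra was found in 14.7%, 23.4%, 7.69% and 45.5% of them and in at most 0.0403% of the remaining cells.

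Stromal niche genes were higher for 7 of 11, with Cxcl12 at 687, 632, 304 and 565 CPM, the stem cell factor Kitl at 73.1, 125, 100 and 173 CPM and the adhesion protein Vcam1 at 63.0, 89.0, 117 and 143 CPM. The lowest Cxcl12 level was that of efferocytic Experiment 1. Lepr, a marker on the same list, had a UMI in only 5.88%, 3.45%, 12.5% and 21.7% of the collagen-rich cells before thinning. Of 11 osteoblast markers only Runx2, the master regulator of bone formation, was higher in all libraries by this criterion (25.1, 26.7, 30.1 and 41.6 CPM), and the bone matrix gene Ibsp was at 33.7, 9.65, 33.4 and 7.87 CPM. Ibsp thus followed the experiment and not the group, with a UMI in only 11.8%, 10.3%, 18.8% and 13.0% of the collagen-rich cells before thinning.

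Markers of several other lineages were at or near 0, while those of neutrophils, MHC class II and macrophages were not in every library. Of 8 endothelial markers 5 had no UMI in the collagen-rich cells of any library, as did 7 of 9 epithelial, 4 of 5 B cell and 5 of 6 erythroid markers. The summed level of the epithelial list was 8.60, 2.97, 1.67 and 0 CPM. The paper lists RM1 as fibroblast-like, and whether the collagen-rich cells held RM1 RNA was not tested. The neutrophil list summed to 5568, 35.6, 10.03 and 5.62 CPM, and 2 of its 10 genes had no UMI. In the first of these libraries S100a8 and S100a9 were at 1896 and 1998 CPM, nearly all of it from 1 cell. The 7 MHC class II genes, which present antigen, summed to 221, 86.1, 10.03 and 21.4 CPM. All 18 macrophage markers were at least 2-fold lower than in the remaining cells, with sums of 13447, 12490, 9174 and 7418 CPM against 56647, 50711, 47972 and 38427 CPM. In the 57 cells of low macrophage content the sums were 802, 1200, 1320 and 350 CPM. Of 18 cell cycle genes 9 were higher, with summed levels of 719, 1074, 923 and 1206 CPM against 358, 345, 325 and 442 CPM in the remaining cells.

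Although rare, the collagen-rich cells carried most of the fibrillar collagen and fibroblast marker UMIs found in cells of each library. For the 14 fibroblast markers this was between 67.8% and 87.6%. Barcodes that did not count as cells are left out of these shares. The stromal niche list had only 38.0%, 23.9%, 14.9% and 22.1% of its UMIs there, and the folding and modifying genes at most 6.33%. The cells held 1.38% and 0.978% of the UMIs of cells in the non-efferocytic and 0.480% and 0.576% in the efferocytic libraries. Of 12176 genes with at least 20 UMIs in every library, 194 had at least 50% of their UMIs in these cells in every library. Sparc had 97.3%, 82.3%, 96.2% and 96.4% of its UMIs there. Csf1, the factor added to the culture as protein, had 80.7%, 71.4%, 57.5% and 69.2%. Acta2 had 87.8%, 70.9%, 65.5% and 81.4%.

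The chemokine Ccl7 had 61.4% and 63.6% of its UMIs in collagen-rich cells of the non-efferocytic but 20.6% and 29.6% in the efferocytic libraries, with levels in the remaining cells of 4.02 and 3.59 against 8.50 and 10.8 CPM. The groups did not overlap in either measure, but the share of all genes for which this holds was not counted.

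When all cells of a library were summed, as in bulk RNA, 172 of the 191 such genes other than the rule genes were called lower in efferocytic libraries and none higher (edgeR, adjusted p under 0.05). Of all 13761 genes tested in this sum, 18.8% were called lower and 19.4% higher, 38.2% in all. The genes were chosen for their share in these cells, which were fewer in the efferocytic libraries. Within the collagen-rich cells, 14 of the 191 were called lower and 4 higher, with a median log2 fold change of -0.05 against -1.22 over all cells. In such a sum, fewer cells of a type and less RNA per cell cannot be told apart. For Sparc the log2 fold change over all cells was -1.32 (edgeR, adjusted p = 0.000151), and for Cxcl12 it was -1.94 (adjusted p = 0.00123).

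**Figure D3:**
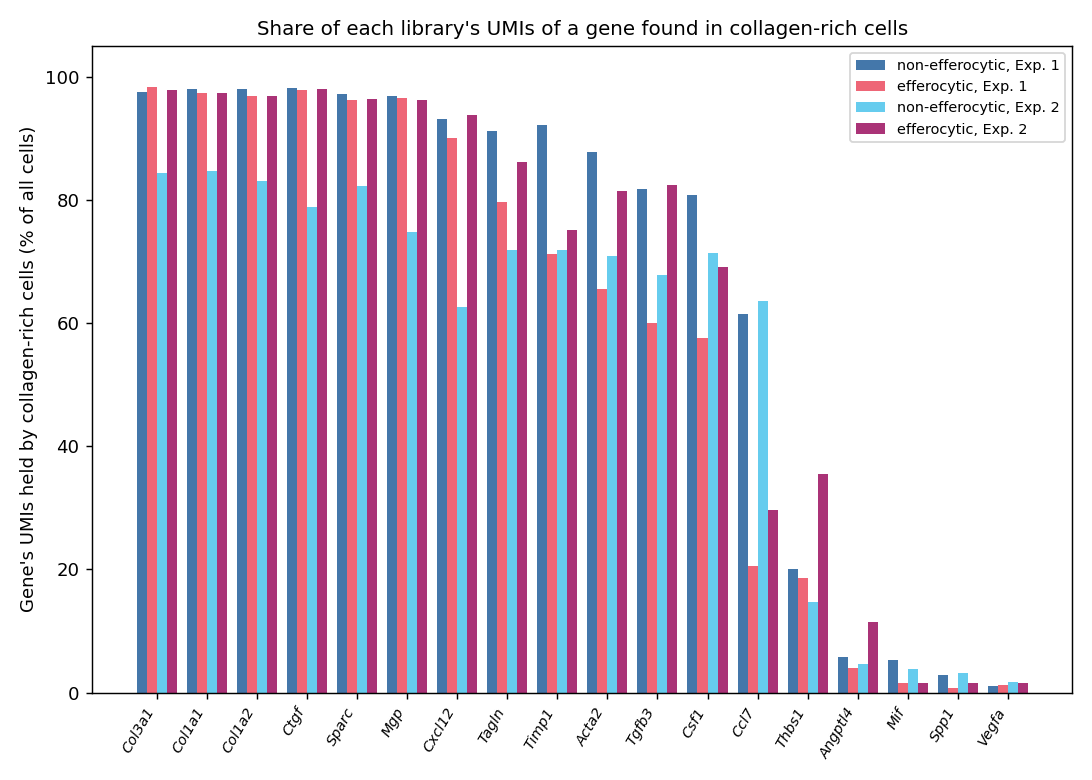
Percent of a gene's UMIs, over all cells of a library, that lay in collagen-rich cells (y), for 18 genes (x), with 1 bar per library. Sparc stands between 82.3% and 97.3%, Ccl7 is at 61.4% and 63.6% in the non-efferocytic and 20.6% and 29.6% in the efferocytic libraries, and Mif is at most at 5.31%.

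Within collagen-rich cells, 6 of 8 tested contractile genes and 4 of 18 tested TGF-beta genes were called lower and 7 of 15 tested glycolysis genes higher in the efferocytic libraries. UMIs were summed over the collagen-rich cells of each library and compared by edgeR with the experiment as a block. Of 8642 genes tested, 45 (0.521%) were higher and 93 (1.08%) lower at an adjusted p under 0.05, 1.6% in all. These counts moved by more than 1.5 times under several settings. They were 20 and 38 without the block, 21 and 27 by DESeq2 and 16 and 31 over 5947 genes in the 57 cells of low macrophage content. Left out in turn, efferocytic replicate 1 gave 132 and 260 calls and efferocytic replicate 2 gave 94 and 175, with the single library of a group assumed to vary like the other.

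Most contractile genes fell. Of 8 tested contractile and mural markers 6 were called lower and none higher, with a list median of -1.07 beside -0.0036 over all genes tested. Acta2 was at 3364 and 4063 CPM in the non-efferocytic and 1134 and 1793 CPM in the efferocytic libraries (log2 fold change -1.35 ± 0.11 SE, adjusted p = 0.000105). Tagln, which binds actin in smooth muscle, was at 2314 and 2415 against 508 and 741 CPM (-1.92 ± 0.13, adjusted p = 2.85e-05). In the 57 cells of low macrophage content, Acta2 and Tagln fell by 1.53 and 2.20 on the log2 scale.

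The smooth muscle actin Actg2 (-1.97), the myosin light chain Myl9 (-0.92) and the tropomyosins Tpm1 (-0.62) and Tpm2 (-0.60) fell too. Calponin (Cnn1), at 45.1 and 38.6 against 16.7 and 18.0 CPM, did not pass (adjusted p = 0.108), and the intermediate filament gene Des, at 2.87, 16.3, 1.67 and 45.0 CPM, had a positive value that did not pass either. Of 8 tested, 6 were also called lower in the 57 cells and when scaled by library totals or by DESeq2 size factors. The count was 4 of 8 without the block and by DESeq2, 5 of 8 without non-efferocytic replicate 1 and 3 of 11 without a filter on low counts. Further cytoskeletal genes outside the list, chosen after their values were seen, were lower as well. Actb fell from 13031 and 13024 to 6503 and 8502 CPM (adjusted p = 0.00161), and the actin-binding Vcl, Actn1, Flna, Cald1 and Csrp1 fell by 0.59 to 0.90 on the log2 scale.

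Single cells showed the same order for Acta2, whereas the medians of Csrp1 over cells overlapped between the groups. The median UMIs of Acta2 per 10000 UMIs were 30.1 and 20.6 over the non-efferocytic and 8.16 and 9.93 over the efferocytic collagen-rich cells, with 0 as the lowest value in each library and highest values of 128, 120, 45.7 and 51.9. The ranges of cells thus overlapped, while the highest cells were in the non-efferocytic libraries. Near the start of Acta2 (chr19:34241090-34255590), the 250 bases before the start listed by RefSeq held 2 stretches close to the CArG box. This box is the site of serum response factor, whose binding and part in these differences were not tested. Capitals mark CC, 6 bases of which at least 5 are A or T, and GG, a pattern that reads alike on both strands and was found in 8.59% of all 32851 windows of this length. The first begins 84 bases before the start (GRCm38.p6 chr19:34255438-34255467, minus strand) and the second 34 bases before it (chr19:34255388-34255417). Both lie inside the gene span given above, which comes from GENCODE and starts further upstream.
Acta2 stretch 1: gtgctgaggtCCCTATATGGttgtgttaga
Acta2 stretch 2: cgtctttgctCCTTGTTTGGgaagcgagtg

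A few ligands and responding genes of the TGF-beta pathway fell. Of 18 tested genes of the TGF-beta list 4 were called lower and none higher, with a median of -0.46, and the other 14 did not pass. The count was 2 of 18 without the block and by DESeq2, 1 of 20 without a filter on low counts and 7 of 19 without efferocytic replicate 1. Among the ligands, Tgfb2 was at 181 and 171 against 90.3 and 87.7 CPM (-0.97 ± 0.17, adjusted p = 0.0142) and Tgfb3 at 109 and 125 against 35.1 and 63.0 CPM (-1.22 ± 0.22, adjusted p = 0.0197). Tgfb1, at 93.1 and 92.0 against 92.0 and 84.3 CPM, did not pass (adjusted p = 0.953).

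Among the responding genes, Ctgf (Ccn2), a matricellular protein of fibrosis, was at 625 and 641 against 147 and 115 CPM (-2.27 ± 0.14, adjusted p = 2.85e-05). Cyr61 (Ccn1) was at 383 and 257 against 206 and 54.0 CPM (-1.45 ± 0.24, adjusted p = 0.0125). Cyr61 did not pass without the block (adjusted p = 0.292) or without efferocytic replicate 2 (0.116). For both, and for Tgfb2 and Tgfb3, the groups did not overlap, which was not counted over all genes and adds nothing for genes already called. In the 57 cells of low macrophage content Ctgf, Cyr61 and Tgfb3 fell, and Tgfb2 had an adjusted p of 0.0546. The remaining cells had at most 1.69 CPM of Ctgf, Cyr61, Tgfb2 and Tgfb3 in the non-efferocytic and 0.113 CPM in the efferocytic libraries. All were called lower in the remaining cells as well (-5.88, -3.74, -3.00 and -2.21). The interaction of cell class and status, described below, was 3.29, 2.47, 2.10 and 1.08 in that order. That of Tgfb3 did not pass (adjusted p = 0.272). Each rests on very low levels in the remaining cells, with Ctgf there at 0.161 and 1.69 against 0.0161 and 0.013 CPM. The sizes of these interactions therefore do not measure how far the classes differ.

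Thrombospondin 1 (Thbs1), which can activate latent TGF-beta, was at 1387 and 1151 against 478 and 562 CPM (-1.26 ± 0.13, adjusted p = 0.000716). In the remaining cells Thbs1 fell by more, from 77.2 and 65.8 to 10.1 and 5.91 CPM (-3.12, adjusted p = 0.000183). Its interaction was 1.95 (adjusted p = 9.09e-06). The hyaluronan-degrading protein Cemip was at 83.1 and 138 against 11.7 and 19.1 CPM (-2.81 ± 0.26, adjusted p = 0.000228). S100a8 and S100a9, calcium-binding proteins of neutrophils, fell by the most among genes that averaged 50 CPM or more, at 1896 and 12.6 against 5.02 and 3.37 CPM for S100a8. In non-efferocytic Experiment 1 a single cell held 2640 of the 2647 UMIs of S100a8 and 2785 of the 2789 of S100a9, and without that library the log2 fold changes were -1.58 and -3.45, neither past the threshold.

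Few genes of collagen itself passed. The rule genes chose the cells and are given without a test, with Col3a1 at 1156 and 1491 against 1726 and 1732 CPM and Col1a2 at 4147 and 4336 against 3592 and 3396 CPM. Of the other fibrillar collagens none of 6 tested was called, and of the other collagens Col8a1, a short-chain collagen of vessel walls, fell (274 and 228 against 76.9 and 144 CPM, adjusted p = 0.0339). Col8a1 did not pass without the block (adjusted p = 0.0951), by DESeq2 (0.574), with DESeq2 size factors (0.0618) or without a filter on low counts (0.287). No gene of the 16 that fold and modify collagen and none of the 9 tested for trimming and crosslinking was called, with Lox at an adjusted p of 0.0568. The small proteoglycans Ogn (-0.72, adjusted p = 0.0197) and Aspn (-3.09, adjusted p = 0.00821) fell. Of 13 alternatives that gave Aspn a value, 1 lost its call. The call of Ogn was lost without the block (adjusted p = 0.0987), by DESeq2 (0.207), without a filter on low counts, without efferocytic replicate 1 (0.0615) and without non-efferocytic replicate 2 (0.172). Mgp, an inhibitor of matrix calcification that was chosen after its values were seen, was at 930 and 598 against 1403 and 1199 CPM and rose (0.81 ± 0.12, adjusted p = 0.00607).

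Signals to myeloid cells were mostly without a call. Csf1 fell, at 264 and 324 against 147 and 207 CPM (-0.72 ± 0.14, adjusted p = 0.0297), the only call among 13 tested genes of this list. It did not pass without the block (adjusted p = 0.199), by DESeq2, without a filter on low counts, after free RNA was subtracted, without efferocytic replicate 1 (0.208) or without non-efferocytic replicate 2 (0.427). Cxcl12 had a log2 fold change of -0.62 ± 0.19 (adjusted p = 0.195). The chemokines Ccl2, at 659 and 815 against 1022 and 647 CPM, and Ccl7, at 457 and 636 against 458 and 783 CPM, overlapped between the groups.

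Glycolytic genes were called in 1 direction only, for part of the list. Of 15 tested genes of the glycolysis list, known targets of hypoxia-inducible factor (HIF), 7 rose and none fell, with a median of 0.91, while 4 had negative values that did not pass. Without a filter on low counts 2 of 19 were called. Ldha, which makes lactate, was at 464 and 373 against 813 and 849 CPM (1.02 ± 0.12, adjusted p = 0.00174). Pgk1 was at 184 and 149 against 353 and 356 CPM (1.12 ± 0.14, adjusted p = 0.00223), and Tpi1, Gapdh, Pgam1, Eno1 and Pkm rose by 1.25, 0.91, 1.06, 1.08 and 0.90 on the log2 scale.

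**Figure D4:**
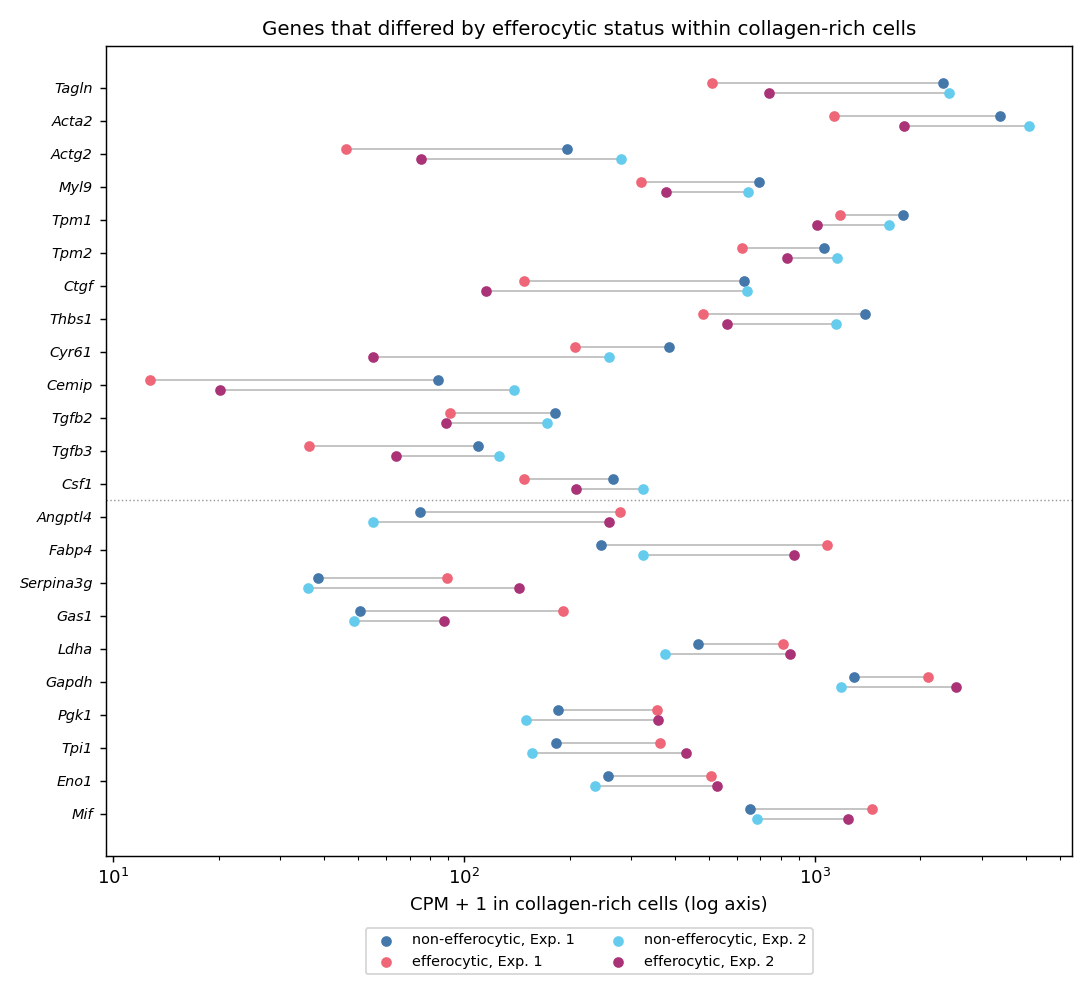
CPM + 1 in collagen-rich cells (x, log axis) of 23 genes (y), with 1 point per library and a line joining the libraries of an experiment. The genes were drawn because they were called, lower in efferocytic libraries above the dotted line and higher below it, with Tagln at 2314 and 2415 against 508 and 741 CPM and Ldha at 464 and 373 against 813 and 849 CPM.

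In the 57 cells of low macrophage content, 5 of 11 tested glycolysis genes rose and none fell. Mif, a cytokine and known HIF target outside the list that was chosen after its values were seen, was at 652 and 683 against 1456 and 1246 CPM in all collagen-rich cells (1.03 ± 0.11, adjusted p = 0.000720) and rose by 0.99 in the 57 cells. Collagen-rich cells held at most 5.31% of its UMIs, and over all cells of a library Mif rose by 1.48 (edgeR, adjusted p = 0.000205). Vegfa, chosen likewise, was at 22.9 and 40.1 against 40.1 and 30.4 CPM and did not pass (adjusted p = 0.918). The core of the HIF-binding site, ACGTG, stood 3 times in the 250 bases before a RefSeq start of Ldha (chr7:46841475-46855627) and 2 times before that of Pgk1 (chrX:106187100-106203699), and occurred on either strand in 16.6% of all 32851 windows. RefSeq lists 2 starts of Ldha, and the start used lies inside the gene span given here, which comes from GENCODE. The stretches shown, with ACGTG of either strand in capitals, begin their matches 145 bases before the start of Ldha (GRCm38.p6 chr7:46845647-46845676, plus strand) and 150 bases before that of Pgk1 (chrX:106186938-106186967, plus strand).
Ldha stretch: ggtgtcgcagcaCACGTGgagccactcttg
Pgk1 stretch: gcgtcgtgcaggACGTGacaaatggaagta

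Angptl4 and Fabp4 were among the 5 largest called rises, counting genes that averaged 50 CPM or more. Angptl4, a secreted inhibitor of lipoprotein lipase, was at 73.8 and 54.2 against 278 and 259 CPM (2.09 ± 0.17, adjusted p = 0.000105). The fatty acid binding protein Fabp4 was at 244 and 323 against 1084 and 870 CPM (1.80 ± 0.15, adjusted p = 0.000177). Both passed in the 57 cells as well, and Fabp4 was the only call among 4 tested adipocyte markers, with a list median of 0.26. Plin2, which coats lipid droplets and was chosen after its values were seen, rose by 1.31. Fabp4 also rose in the remaining cells, from 208 and 273 to 789 and 562 CPM (1.57, adjusted p = 0.00283), and its interaction did not pass (0.33, adjusted p = 0.501). Plin2 rose there as well, by 1.36, and Angptl4 did not pass (0.59, adjusted p = 0.0587), with an interaction of 1.62 (adjusted p = 0.00137).

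Serpina3g, a serine protease inhibitor, was at 37.3 and 34.9 against 88.6 and 143 CPM (1.69 ± 0.24, adjusted p = 0.00455), and 1 cell held 58.5% of its UMIs in efferocytic Experiment 1. Gas1, a membrane protein that binds hedgehog ligands, was at 49.4 and 47.5 against 191 and 86.6 CPM (1.45 ± 0.25, adjusted p = 0.0133, and 0.0901 without the block). The macrophage elastase Mmp12 was called higher, at 34.4 and 60.8 against 134 and 250 CPM, yet single cells held 78.8% and 89.6% of its UMIs in the efferocytic libraries, and it was not tested in the 57 cells.

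Of 18 macrophage markers 9 fell within the collagen-rich cells, with a list median of -0.71. The count was 3 without the block, 5 by DESeq2, without doublets and with at least 20 collagen UMIs, and 1 without a filter on low counts. Adgre1 was at 176 and 137 against 87.0 and 29.2 CPM and Csf1r at 229 and 194 against 65.2 and 69.7 CPM. In the 57 cells none of 9 tested was called, and Adgre1 was at 22.0, 4.97, 22.1 and 0 CPM. Lyz2 was at 320, 628, 561 and 157 CPM in the 57 cells, beside 18780 to 32446 CPM in the remaining cells. The part of macrophage RNA in the contractile, TGF-beta and glycolytic calls was not tested. Ctsk, a collagen-cleaving protease, was called higher in all collagen-rich cells but had -0.32 (adjusted p = 0.880) in the 57.

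**Figure D5:**
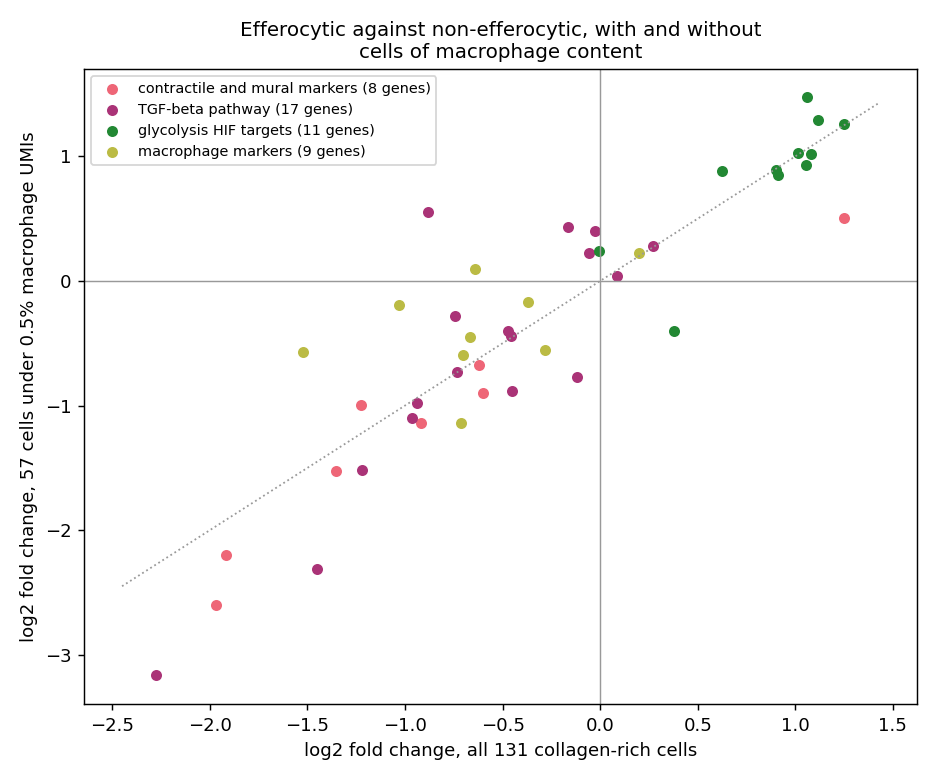
Log2 fold change, efferocytic over non-efferocytic, of 4 gene lists in all 131 collagen-rich cells (x) and in the 57 of them under 0.5% macrophage UMIs (y), with 1 point per gene tested in both and a dotted line of equality. Acta2 (-1.35 and -1.53) and Ctgf (-2.27 and -3.17) lie at the lower left and Ldha (1.02 and 1.03) at the upper right.

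Whether these differences were particular to the collagen-rich cells was tested by the interaction of cell class and status over the 8 sums, with the library as a block. Of 13501 genes 209 (1.55%) had a higher and 118 (0.874%) a lower efferocytic difference in collagen-rich than in remaining cells, 2.42% in all. The 209 include the 3 rule genes, which set the classes, and 15 genes too low to be tested in the remaining cells alone were among the higher calls. Of 8338 genes that each class alone could test, the rule genes left out, 186 were higher and 115 lower. The calls depended on the model. Without the block there were 2 and 0, and with 10% of UMIs removed as free RNA 3 and 1. The remaining cells for their part had 2489 genes higher (18.7%) and 2411 lower (18.1%) of 13329 tested, 36.8% in all, or 1919 and 3391 when scaled by library totals.

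None of the 19 tested glycolysis genes passed the interaction test, and Ldha rose by 1.21 in the remaining cells. Tpi1, Gapdh, Pgk1, Pgam1, Eno1 and Pkm rose there as well, by 1.11, 1.09, 0.86, 1.14, 1.16 and 0.90. The difference between the classes was -0.11 for Ldha (adjusted p = 0.886), which does not show that they act alike. Pdgfa, a growth factor of fibroblasts, was at 79.5 and 83.8 against 58.5 and 21.4 CPM in collagen-rich cells and rose in the remaining cells from 20.3 and 16.9 to 39.9 and 37.2 CPM (interaction -2.18 ± 0.29, adjusted p = 3.12e-05). Fkbp11, Fgfr1 and Hacd1 also had negative interactions, of -1.94, -1.65 and -1.54, and rose in the remaining cells. Within the collagen-rich cells alone neither Pdgfa (edgeR adjusted p = 0.142) nor Fkbp11 (0.508), Fgfr1 (0.861) or Hacd1 (0.0706) passed. Each of these interactions lost its call under 6 of 10 alternatives.

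The cytoskeletal genes chosen after their values were seen, Actb, Vcl, Actn1, Flna and Csrp1 had negative interactions (-0.82, -1.25, -1.11, -0.86 and -1.32, adjusted p of at most 0.00835). Cald1, the other gene of that choice, did not pass (0.39, adjusted p = 0.640) and fell in the remaining cells by 1.07. Vcl, Actn1, Flna and Csrp1 rose in the remaining cells by 0.42, 0.43, 0.35 and 0.50. Positive interactions were led by Serpina3g (5.09 ± 0.51), Enpp2 (5.05 ± 0.77), Col4a1 (4.17 ± 0.70), Tmem176a (4.15 ± 0.35) and Pdgfra (4.03 ± 1.03). Within the collagen-rich cells alone Tmem176a did not pass (0.071, edgeR adjusted p = 0.896). Tmem176a was at 29.99 and 31.1 against 2.76 and 1.18 CPM in the remaining cells. Serpina3g was at only 0.502 and 0.418 against 0.0403 and 0.0456 CPM in them. Its interaction was as low as 1.77 under an alternative, and 2 of 10 alternatives lost its call. Enpp2, Col4a1 and Pdgfra were at most at 0.352 CPM in the remaining cells and too low to be tested in them alone. They thus entered the test through the collagen-rich cells, and their values do not show a difference between the classes. Of 11 tested contractile genes 8 had a positive and 3 a negative interaction, of which 4 positive ones passed (Tagln 1.14, adjusted p = 0.0357). In the remaining cells Tagln was at 3.101 and 9.35 against 0.629 and 0.691 CPM, a fall of larger size than in the collagen-rich cells. For Acta2 the interaction did not pass (0.65, adjusted p = 0.262).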

How the data were processed

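10X Genomics 3′ v3.1 libraries, 1 efferocytic and 1 non-efferocytic in each of 2 experiments, were analyzed from UMI counts per gene and barcode, which the authors deposited without normalization or cell filter after mapping to mm10 with Cell Ranger (3.0.0 in the methods and in the headers of Experiment 1, 3.1.0 in those of Experiment 2). The annotation release is not given in the sources used here. The members and gene lists were chosen with earlier results of these data known.

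The thresholds of the methods were applied to all deposited barcodes, which left more cells in each library than the study lists, so that the cells are not the same set, and 266 cells whose barcode passed in both libraries of an experiment were left out. UMIs were summed per library over collagen-rich and over remaining cells, and the sums were tested with edgeR 4.0.16 in R 4.3.3 (quasi-likelihood, TMM, filterByExpr) with Benjamini-Hochberg adjustment at 0.05. The experiment was the block because the labels pair the libraries by experiment (correlation of same-experiment deviations 0.254 across 2896 genes). DESeq2 1.42.0 was an alternative. The standard error is the log2 fold change over the square root of F. Scripts were tested on simulated data. Shares were compared by an exact permutation test.

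Doublets were scored against simulated pairs, 0.8% per 1000 cells were marked and they were kept. Free RNA was taken from barcodes under 100 UMIs. Named are the 3 rule genes, the 15 genes of highest lowest-library ratio (at least 50 CPM), the 5 largest called changes per direction of the test and of the interaction (mean of at least 50 CPM, same direction in both experiments), and list members of the highest level or that mark other cell types. Promoter stretches came from the RefSeq table of GRCm38.p6, gene positions from GENCODE vM21 on GRCm38. Symbols found more than once, such as Aldoa, were left out of lists, and 1 gene that the rule and lists would name is not reported here. The authors' own cluster and differential expression results were not used. Alternatives are under the results that depend on them.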

Additional observations from a re-analysis of the deposited data

Results flagged for a closer look

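The edgeR interaction of cell class and efferocytic status passed for the 9 genes named for its largest values, and for others such as Angptl4 and Tagln. On the log2 scale the difference between classes was -2.18 for Pdgfa, -1.94 for Fkbp11, -1.65 for Fgfr1 and -1.54 for Hacd1. It was 5.09 for Serpina3g, 5.05 for Enpp2, 4.17 for Col4a1, 4.15 for Tmem176a and 4.03 for Pdgfra. Pdgfa, Fkbp11, Fgfr1, Hacd1 and Tmem176a did not pass within the collagen-rich cells alone. Serpina3g was at most at 0.502 CPM in the remaining cells, and 2 of 10 alternatives lost its call. Enpp2, Col4a1 and Pdgfra were at most at 0.352 CPM there, were not testable in the remaining cells alone and passed the filter through the collagen-rich cells, so that no difference between the classes is shown for these 3. In the 57 cells of low macrophage content Pdgfra had an adjusted p of 0.0572 by the same test. The part of free RNA in them was not tested beyond the removal of 10% of UMIs, which left 3 higher and 1 lower genes. Without non-efferocytic replicate 2 the value of Pdgfra was -1.22.

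Barcodes of under 100 UMIs, used only for the free RNA that 1 alternative subtracts, held a signal of the cartilage collagen Col2a1 in Experiment 1, at 1943 CPM in the non-efferocytic and 2351 CPM in the efferocytic library. In Experiment 2 it was at 0.696 and 0 CPM. The collagen-rich cells of Experiment 1 had 37.3 and 20.1 CPM.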

How the results depend on the processing

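The lower share of collagen-rich cells in efferocytic libraries kept its direction under 16 of 17 alternatives, not all of which could change it. Leaving out 1 library (-0.184 to -0.146 percentage points) could not reverse it, since both efferocytic shares were the lower. Averaging the differences within experiments could not either, as it returns the same value. The difference was -0.0983 with at least 20 collagen UMIs and -0.268 with at least 10 of them for each 10000 UMIs. It was 0.033 among cells under 0.5% macrophage UMIs, a class chosen after seeing the data. Counts of higher and lower genes within collagen-rich cells, 45 and 93, were 20 and 38 with no replicate block and 21 and 27 by DESeq2 with the block, and all of these 58 and 48 calls were among the 138. They were 9 and 20 without a filter on low counts, 56 and 144 by library totals, 29 and 58 without cells of high macrophage content, 82 and 133 without doublets, 16 and 31 in the cells under 0.5% macrophage UMIs, and 80 and 177 in cells of at least 5000 UMIs, which was also chosen after seeing the data. With at least 20 collagen UMIs 76 genes were higher. Leaving out 1 library gave 35 to 132 higher and 79 to 260 lower genes.

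The interaction counts, 209 and 118, fell to 2 and 0 with no replicate block (1671 genes at an unadjusted p under 0.05 by edgeR) and to 3 and 1 after free RNA was subtracted. Leaving out 1 library gave 0 to 51 and 0 to 6, and without efferocytic replicate 2 none passed (1386 genes at an unadjusted p under 0.05). In the remaining cells the counts were 1157 and 987 with no replicate block, and 0 to 1299 and 0 to 979 when 1 library was left out, with none without non-efferocytic replicate 2 (3494 at an unadjusted p under 0.05). The causes were not tested.

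Of 781 values of 54 named results under alternatives, 623 kept their call, 155 lost it and 3 reversed: Ctsk at -0.32 and Tyrobp at 0.093 in cells under 0.5% macrophage UMIs, and the interaction of Pdgfra at -1.22 without non-efferocytic replicate 2, which was 5.76 without efferocytic replicate 2. With 16 to 58 collagen-rich cells in a library, low genes could not be tested, and 2 libraries a group limit the shares to the smallest p given.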

Other observations

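Cartilage markers were low in the collagen-rich cells, whereas fat cell markers were so only in part. Of 6 chondrocyte markers 4 had no UMI in them in any library, and Sox9, a transcription factor of cartilage and other progenitors, was at 20.8, 19.3, 6.69 and 28.1 CPM in non-efferocytic Experiments 1 and 2 and efferocytic Experiments 1 and 2. The fat cell genes Plin1 and Cidec had none, while the lipid gene Lpl, at 261, 301, 226 and 625 CPM, was at least 2-fold lower than in the remaining cells. The list of 7 fat cell markers summed to 566, 677, 1353 and 1551 CPM against 1333, 1405, 2357 and 2062 CPM. Fabp4 was the only gene of this list that was called between efferocytic and non-efferocytic libraries.

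Among engulfment genes, Axl, a receptor for Gas6 and protein S, was at 171, 172, 139 and 142 CPM against 20.4, 18.99, 14.8 and 10.1 CPM in the remaining cells and was the only one of 15 engulfment genes at least 2-fold higher in every library. The scavenger receptor Cd36 was called higher in efferocytic libraries (132 and 157 against 236 and 233 CPM), but in the 57 cells of low macrophage content it was at 19.6, 9.95, 85.1 and 8.37 CPM and was not tested. Its call was lost under 8 alternatives, among them no replicate block (adjusted p = 0.0974) and leaving out either non-efferocytic library (0.435 and 0.0654). The scavenger receptor Stab1 was called lower (224 and 157 against 71.9 and 47.2 CPM, -1.67 ± 0.18 SE, edgeR adjusted p = 0.000787) and was likewise not tested in the 57 cells. Of 13 tested engulfment genes these 2 were called. Among MHC class II genes Cd74, at 124 and 34.9 against 0 and 2.25 CPM, and H2-Ab1 fell, 2 of 3 tested, with 0 to 14.9 CPM of Cd74 in the 57 cells. H2-Ab1 did not pass without the block (edgeR adjusted p = 0.0939), with DESeq2 size factors (0.0596) or without a filter on low counts (0.172), and DESeq2 gave neither gene an adjusted p.

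Hemoglobin RNA was abundant in barcodes under 100 UMIs of Experiment 2, with Hbb-bs at 6927 and 8255 CPM, but was at 1.48 and 1.12 CPM in its collagen-rich cells.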
